A study of Mus musculus with 4 samples.

Results

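Osteopontin, the product of Spp1, and 7 genes for its receptors were followed in macrophages with and without RBP-J, the nuclear effector that carries Notch signals to DNA. The 8 genes are Spp1, Cd44, Itgav, Itgb1, Itgb3, Itgb5, Itga4 and Itga9, and all 8 were found by symbol among the 22026 genes of the tables. Spp1 was selected on its difference between RBP-J KO and WT in these libraries. Its receptors were added by name, with earlier results of these data known. The values of that contrast are therefore given as a description without a test.

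The 4 libraries were made from bone marrow derived macrophages of C57BL/6 mice aged 8 weeks, grown from marrow for 3 days in CMG14-12 supernatant as a source of M-CSF, matched to 20 ng/ml of the recombinant factor. The 2 WT libraries came from mice described as wildtype control, and the 2 RBP-J KO libraries from Rbpj f/f;LysM cre mice, in which Cre is expressed from the lysozyme M gene Lyz2 of myeloid cells. The labels do not say whether the controls carry LysM cre or a floxed Rbpj, nor whether a library is 1 mouse or a pool, and they give no sex.

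Osteopontin is a secreted, heavily phosphorylated glycoprotein of bone matrix and of activated macrophages. Its RGD sequence is bound by integrins that pair the alpha V subunit with beta 1, beta 3 or beta 5, and a neighbouring sequence exposed by thrombin is bound by alpha 9 beta 1 and alpha 4 beta 1 integrins. CD44, best known as the receptor of hyaluronan, is its receptor outside the integrin family. Integrins work only as alpha-beta pairs, and the beta 1 subunit is shared by many alpha subunits.

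The libraries also differed by replicate number. The replicate 1 tables list genes and the replicate 2 tables transcripts, which were summed per gene. Levels are read as FPKM, a unit that no header states, in which fragment numbers are corrected for the length of the transcript and the size of the library. The Y-linked Ddx3y stood at 193 FPKM (WT) and 174 FPKM (RBP-J KO) for replicate 1, with both replicate 2 tables listing 0; Xist showed the reverse, 0 for replicate 1 and then 268 FPKM (WT) and 290 FPKM (RBP-J KO) for replicate 2. The replicate 1 libraries were thus from male and the replicate 2 libraries from female mice, so the 2 libraries of a group came from different animals, and sex, table type and replicate number cannot be told apart. Rbpj, the targeted gene, measured 355 and 573 FPKM in the WT libraries and 51.5 and 77.0 in the RBP-J KO libraries, replicates 1 and 2 in that order, so the libraries match their labels. Summed FPKM lay between 2125327 and 2389348 per library, and the read depth is unknown. Of the 8 macrophage markers none was at 0 in any library, and their sum came to 16384 and 14282 FPKM for WT and 18283 and 11689 FPKM for RBP-J KO. In both pairs 3 of the 8 were higher and 3 lower, beside 25.1% and 34.1% of the 11851 tested genes. Of the 3 lower, 2 were so by at least 1.5-fold, as were 3.63% of tested genes. Cd14, the lipopolysaccharide co-receptor, went from 1715 to 764 FPKM and from 1570 to 800 FPKM. Lyz2, the gene that carries Cre in LysM cre mice, went from 218 to 94.3 FPKM and from 192 to 115 FPKM. Because of these differences, RBP-J KO was compared with WT inside each replicate number, called pair 1 and pair 2, and values inside a pair run from WT to RBP-J KO.

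Sequences before the start sites of 4 of these genes are shown first. Spp1 is the ligand. Itgav and Itgb5 can form 1 receptor and were both higher in RBP-J KO. Cd44 is the gene whose sequence holds the short core of the RBP-J motif. RefSeq windows of build GRCm38.p6 were matched for 7 of the 8 genes. The 250 bases before the start were searched on both strands for TGGGAA, the core of the RBP-J motif, and for AACCACA, a core of the RUNX motif chosen after the sequence had been seen. Capitals mark the matches, and each run is written 5′ to 3′ on the strand of its gene. Spp1 at chr5:104434861-104435110 (plus strand), Itgav at chr2:83724147-83724396 (plus), Itgb5 at chr16:33829415-33829664 (plus) and Cd44 at chr2:102901666-102901915 (minus) read as follows.
Spp1: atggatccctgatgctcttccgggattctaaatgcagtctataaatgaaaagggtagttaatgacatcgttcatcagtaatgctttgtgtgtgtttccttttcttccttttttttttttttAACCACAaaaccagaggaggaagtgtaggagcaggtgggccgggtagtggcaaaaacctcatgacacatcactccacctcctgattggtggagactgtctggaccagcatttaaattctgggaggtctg
Itgav: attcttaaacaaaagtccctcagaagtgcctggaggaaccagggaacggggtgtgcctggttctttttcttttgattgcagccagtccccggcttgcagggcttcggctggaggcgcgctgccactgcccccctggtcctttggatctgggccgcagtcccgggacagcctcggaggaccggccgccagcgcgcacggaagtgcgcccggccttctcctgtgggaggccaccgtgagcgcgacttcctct
Itgb5: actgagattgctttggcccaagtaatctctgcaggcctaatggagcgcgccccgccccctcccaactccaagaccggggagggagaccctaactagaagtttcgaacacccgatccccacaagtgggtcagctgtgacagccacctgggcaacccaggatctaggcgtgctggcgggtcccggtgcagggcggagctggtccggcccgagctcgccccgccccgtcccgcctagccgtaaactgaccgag
Cd44: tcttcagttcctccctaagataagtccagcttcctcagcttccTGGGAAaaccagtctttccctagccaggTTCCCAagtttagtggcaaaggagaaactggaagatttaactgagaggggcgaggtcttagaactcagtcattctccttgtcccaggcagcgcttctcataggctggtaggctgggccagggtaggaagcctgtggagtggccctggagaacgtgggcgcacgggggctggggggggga

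The 7 genes have 8 windows, and TGGGAA was found in 1 of them, that of Cd44, with matches beginning 207 and 179 bases before the start, the second on the opposite strand. Among 32851 RefSeq windows of the same length 21.6% hold it. The Spp1 window has 1 match to AACCACA, beginning 129 bases before the start, and 4.4% of all windows hold that motif. No other window of the 8 holds either motif. These matches describe letters in a window and are not binding sites measured in these cells. The RefSeq window of Itga9 starts at the short isoform b, which made up 1.23% of the gene in the WT library of replicate 2 and 2.52% in the RBP-J KO library, so it is not shown.

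Spp1 itself was among the most abundant transcripts of WT macrophages and lower in RBP-J KO by close to an order of magnitude. It measured 13842 FPKM in replicate 1 and 9557 FPKM in replicate 2 of WT, then 1362 FPKM and 1112 FPKM in the same order for RBP-J KO. Both RBP-J KO libraries lay far below both WT libraries. By level, Spp1 held rank 9 and rank 12 of all 22026 genes in WT, and rank 221 and rank 252 in RBP-J KO. Its share of summed FPKM was 0.58% and 0.42% in WT and 0.058% and 0.0523% in RBP-J KO. The group means were 11699 ± 3030 and 1237 ± 177 FPKM (SD, n = 2), a log2 difference of -3.22 (SE 0.28, 9.34-fold lower) on the log2(FPKM + 1) scale, with 10.2-fold in pair 1 and 8.59-fold in pair 2. Of 11851 genes tested, 4 had a more negative log2 difference. In bulk RNA, fewer cells that express a gene and less RNA per cell cannot be told apart.

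**Figure D1:**
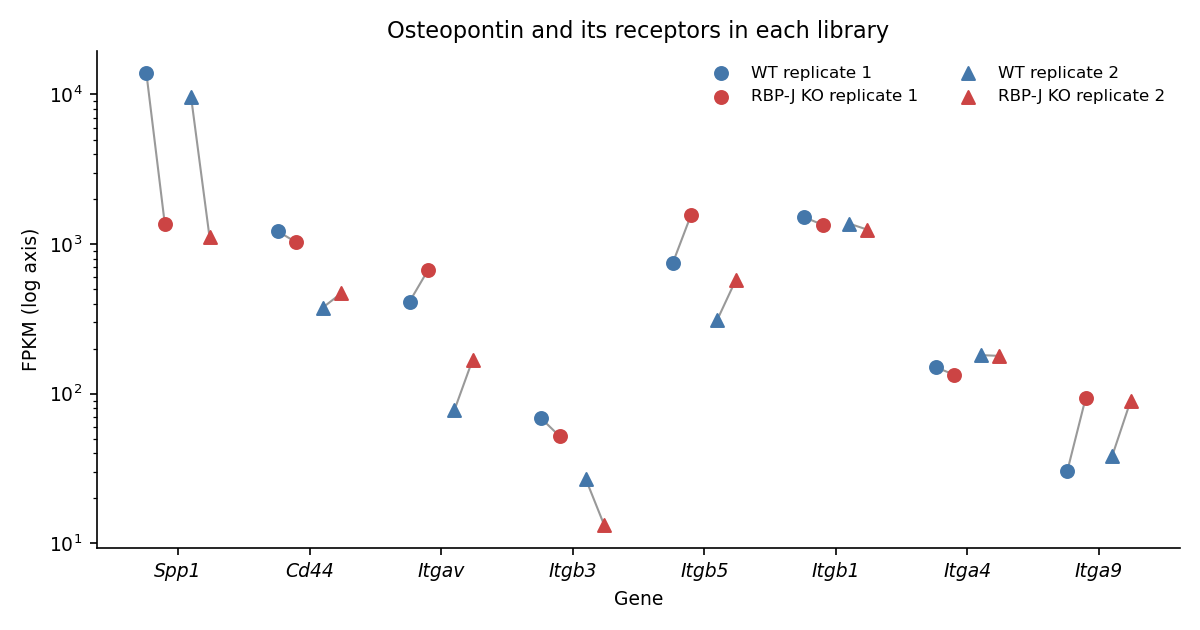
FPKM on a log axis for osteopontin and its 7 receptor genes, with circles for replicate 1, triangles for replicate 2, blue for WT, red for RBP-J KO and a line joining the libraries of 1 replicate number. Spp1 lies at 13842 and 9557 FPKM in WT against 1362 and 1112 in RBP-J KO, the lines of Itgav, Itgb5 and Itga9 slope upwards in both pairs, and those of Itgb1 and Itga4 are nearly flat.

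The lower level was shared by the Spp1 transcripts that were measurable. The replicate 2 tables list 5, and 1 library per genotype gives no test. NM_009263, described as isoform 4, was at 9233 FPKM (WT) and 1057 FPKM (RBP-J KO), which is 96.6% and 95.1% of the gene's sum. NM_001204202, isoform 2, was at 296 and 51.4 FPKM, 5.76-fold lower. NM_001204233, a second transcript of isoform 4, was at 24.8 and 3.32 FPKM, 7.48-fold lower. These 3 were lower by 5.76-fold to 8.73-fold, while the remaining 2 transcripts were at 3.10 FPKM or less in WT and listed at 0 in RBP-J KO. In the GENCODE annotation of GRCm38, NM_009263 starts at position 104435118 of chromosome 5 and NM_001204233 at position 104436192, a separate start site, so transcripts of both starts were lower in RBP-J KO. Cufflinks divides shared exons between transcripts by a model, and values of the minor ones depend on it.

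**Figure D2:**
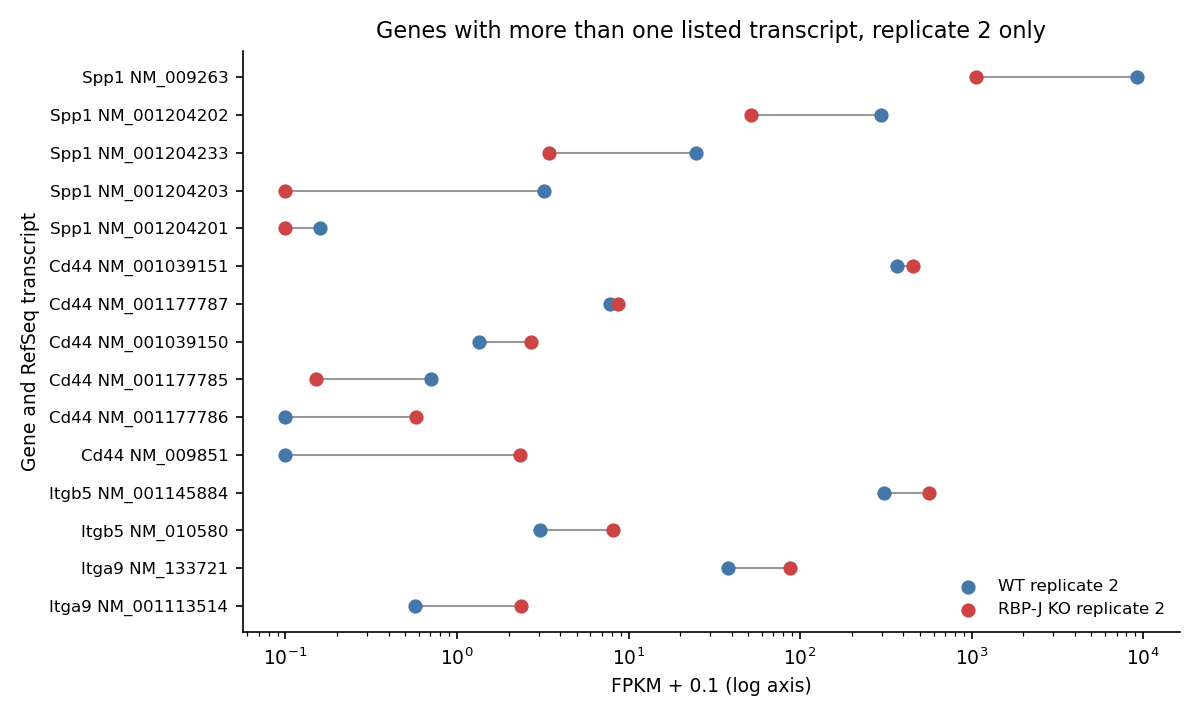
FPKM plus 0.1 on a log axis for each listed transcript of Spp1, Cd44, Itgb5 and Itga9 in WT (blue) and RBP-J KO (red) of replicate 2. One transcript carries most of each gene, such as NM_009263 of Spp1 at 9233 and 1057 FPKM, and the 3 leading Spp1 transcripts are all lower in RBP-J KO.

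Itgav, the alpha V subunit common to the RGD-binding receptors, was higher in RBP-J KO inside each pair. It went from 412 to 669 FPKM in pair 1 and from 77.2 to 169 FPKM in pair 2, which is 1.62-fold and 2.17-fold. The groups overlap, because both replicate 1 libraries lay above both replicate 2 libraries: replicate 1 was 5.34 times replicate 2 among the WT libraries and 3.97 times among the RBP-J KO libraries. Over all libraries the log2 difference was 0.91 (SE 1.05), and it was -0.30 without WT replicate 2, -0.08 without RBP-J KO replicate 1, 2.11 without WT replicate 1 and 1.90 without RBP-J KO replicate 2. Its direction therefore rests on the comparison inside pairs.

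Itgb5, which pairs with alpha V alone, was higher by a similar factor in both pairs. Its level went from 744 to 1568 FPKM in pair 1 and from 313 to 576 FPKM in pair 2, or 2.11-fold and 1.84-fold. WT replicate 1 exceeded RBP-J KO replicate 2, so the groups overlap. The log2 difference over all libraries was 0.98 (SE 0.66), and between 0.25 and 1.70 with 1 library left out, the lowest being without RBP-J KO replicate 1. Both of its listed transcripts were higher in RBP-J KO of replicate 2, isoform 1 at 310 and 568 FPKM and the scarce isoform 2 at 2.93 and 8.05 FPKM.

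Itgb3, the beta subunit of the osteoclast receptor alpha V beta 3, differed in the opposite direction from Itgb5. It went from 68.5 to 52.0 FPKM in pair 1 and from 26.8 to 13.2 FPKM in pair 2, so 1.31-fold and 1.95-fold lower. The groups overlap here too, with replicate 1 at 2.56 times replicate 2 among the WT libraries and 3.92 times among the RBP-J KO libraries. Over all libraries the log2 difference was -0.68 (SE 0.79), and it was 0.27 without RBP-J KO replicate 2, -0.02 without WT replicate 1, -1.62 without RBP-J KO replicate 1 and -1.34 without WT replicate 2. The ratio of Itgb5 to Itgb3 FPKM was 10.9 in WT replicate 1 and 11.7 in WT replicate 2, against 30.2 and 43.5 in RBP-J KO. Unlike the levels of either gene, this ratio separated the groups with no overlap. It was 1 of several ratios formed, and it joins genes already seen to differ in opposite directions. With 2 libraries per group, such a separation is a description only.

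Itgb1, the beta subunit of the alpha 4 and alpha 9 receptors and a further partner of alpha V, was nearly level. It measured 1512 and 1372 FPKM in the WT libraries and 1345 and 1248 in the RBP-J KO libraries, 1.12-fold lower in pair 1 and 1.10-fold lower in pair 2. The log2 difference was -0.15 (SE 0.19). Although the 4 values do not overlap between groups, the difference is smaller than its standard error. That standard error comes from the fit without a term for the replicate number, and inside pairs the log2 differences were -0.17 and -0.14. The replicates agreed more closely here than for any other beta subunit of the 3.

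Itga9, which like Itga4 encodes an alpha subunit of a receptor for the thrombin-exposed sequence, was the receptor gene with the largest log2 difference of the 7. It measured 30.6 and 38.2 FPKM in the WT libraries and 94.2 and 89.2 in the RBP-J KO libraries. Both RBP-J KO libraries exceeded both WT libraries. The means were 34.4 ± 5.37 and 91.7 ± 3.51 FPKM (SD, n = 2), a log2 difference of 1.40 (SE 0.21), with 3.01-fold in pair 1 and 2.30-fold in pair 2. Unlike Itgav and Itgb5, its level hardly depended on the replicate number, with replicate 1 at 0.80 times replicate 2 for WT and 1.06 times for RBP-J KO. The long isoform a made up 98.8% and 97.5% of the gene in WT and RBP-J KO of replicate 2, at 37.7 and 87.0 FPKM.

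Itga4, the alpha 4 subunit of VLA-4, did not separate the groups. It measured 150 and 181 FPKM in the WT libraries and 134 and 179 in the RBP-J KO libraries, with a log2 difference of -0.09 (SE 0.24). Leaving out 1 library gave between -0.29 and 0.12, the positive values being 0.12 without RBP-J KO replicate 1 and 0.05 without WT replicate 2. The ratio of Itga4 to Itga9 was 4.91 and 4.74 in WT and 1.43 and 2.01 in RBP-J KO.

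Cd44 went in opposite directions in the pairs. It went from 1215 to 1026 FPKM in pair 1, 1.18-fold lower, but from 376 to 468 FPKM in pair 2, 1.24-fold higher. The log2 difference over all libraries was 0.04 (SE 0.70), and -0.81 without WT replicate 2, -0.53 without RBP-J KO replicate 1, 0.60 without RBP-J KO replicate 2 and 0.88 without WT replicate 1. Isoform c, NM_001039151, made up 97.5% of Cd44 in the WT library of replicate 2 and 97.0% in the RBP-J KO library. Among the 6 listed Cd44 transcripts it has the fewest GENCODE exons, 9, and each of the others was at 8.59 FPKM or less.

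**Figure D3:**
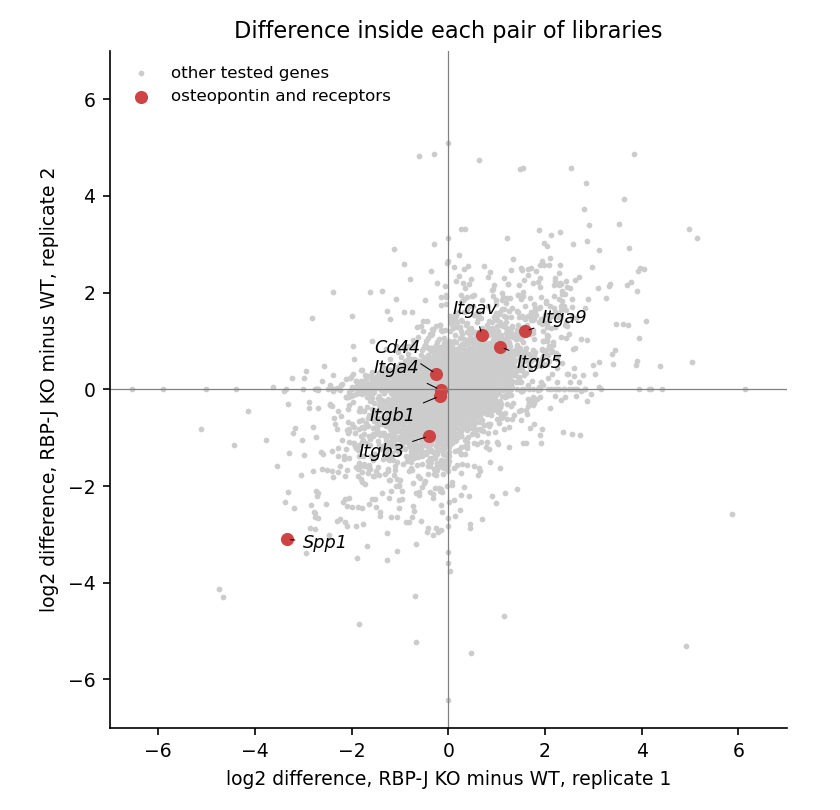
Log2 difference of RBP-J KO minus WT on the log2(FPKM + 1) scale in replicate 1 (horizontal axis) and replicate 2 (vertical axis) for the 11851 tested genes (grey), with osteopontin and its receptors in red. Spp1 lies at -3.34 and -3.10, Itga9, Itgb5 and Itgav in the upper right quadrant, and Cd44 at -0.24 and 0.31.

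By the count inside pairs, 3 of the 8 genes (Itgav, Itgb5 and Itga9) were at least 1.5-fold higher in RBP-J KO in both pairs, where 3.86% of the 11851 tested genes were. Spp1, 1 of the 8, was at least 1.5-fold lower in both pairs, as were 3.63% of tested genes. The 8 genes were chosen with earlier results of these data known, and Spp1 on this contrast. These counts are therefore a description and no test of enrichment. Itgb3 lay just outside that lower count, with 1.31-fold in pair 1 and 1.95-fold in pair 2, and Itgav just inside the higher one, with 1.62-fold in pair 1. All 8 had a mean of at least 1 FPKM and entered the fit. Their median log2 difference was -0.03, and that of all tested genes -0.05. With limma and Benjamini-Hochberg adjustment 0 of the 11851 genes (0%) were past an adjusted p of 0.05, and 524 genes (4.42%) had an unadjusted p under 0.05, 259 higher and 265 lower in RBP-J KO. That fit has no term for the replicate number, and with one as a block the unadjusted count was 1557 and the adjusted count again 0.

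The order of the 8 levels changed at its top. Such an order, like the shares of subunits below, rests on reading the values as FPKM, which are per length, and no header states that unit. In WT the means ran Spp1 11699, Itgb1 1442, Cd44 795, Itgb5 528, Itgav 245, Itga4 165, Itgb3 47.6 and Itga9 34.4 FPKM. Neighbours from Cd44 to Itga4 overlapped between libraries, as did Itgb3 and Itga9. In RBP-J KO the order was Itgb1 1297, Spp1 1237, Itgb5 1072, Cd44 747, Itgav 419, Itga4 157, Itga9 91.7 and Itgb3 32.6 FPKM, and every neighbouring pair down to Itga4 overlapped. Spp1 thus went from 9.16 and 6.96 times the FPKM of Itgb1 in WT to 1.01 and 0.89 times in RBP-J KO.

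The make-up of the receptor subunits differed both with genotype and with the replicate number. Of the summed FPKM of Itgb1, Itgb3 and Itgb5, Itgb5 held 32.0% in WT and 52.9% in RBP-J KO of pair 1, and 18.3% and 31.3% in pair 2. Itgb3 held 2.95% and 1.75% in pair 1 and 1.57% and 0.72% in pair 2. Of the summed FPKM of Itgav, Itga4 and Itga9, Itgav held 69.6% and 74.5% in pair 1 and 26.1% and 38.6% in pair 2. Itga9 held 5.16% and 10.5% in pair 1 and 12.9% and 20.4% in pair 2. The 7 receptor genes together summed to 4132 and 2384 FPKM for WT and to 4888 and 2742 FPKM for RBP-J KO. RNA shares do not measure receptor pairs at the cell surface.

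**Figure D4:**
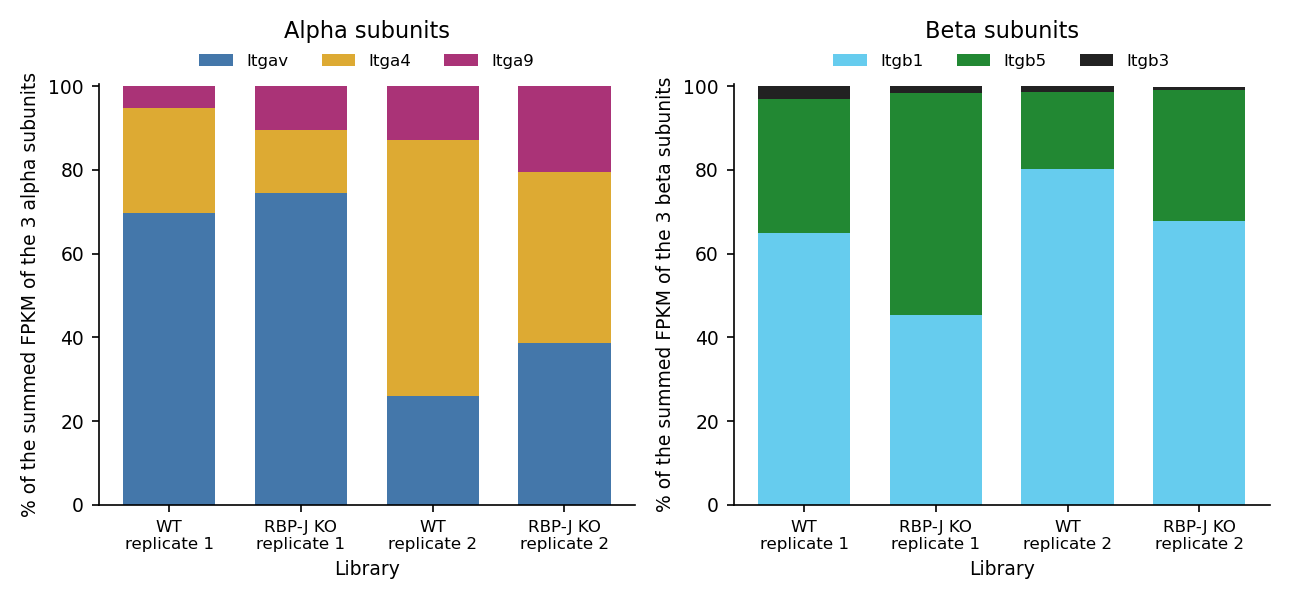
Stacked bars of each alpha subunit (left) or beta subunit (right) as a percentage of the summed FPKM of the 3 subunits, for each of the 4 libraries. The Itgb5 part is larger in RBP-J KO, at 52.9% against 32.0% and 31.3% against 18.3%, and Itgav takes 69.6% and 74.5% in replicate 1 but 26.1% and 38.6% in replicate 2.

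The genes with the profile nearest to Spp1 over the 4 libraries were Rgs18, Pcdh7, Hmga2, Fabp4 and Cbr2, out of 8403 candidates with a mean of at least 20 FPKM. Likeness was the Euclidean distance between centred log2(FPKM + 1) values, which was 0.64 for Rgs18, 0.72 for Pcdh7, 0.77 for Hmga2, 1.07 for Fabp4 and 1.09 for Cbr2. These are not close matches: the nearest gene to each receptor gene lay at 0.02 (Itgb1) to 0.19 (Itga9). Because Spp1 was selected on its difference between genotypes, such a search returns other genes much lower in RBP-J KO. Rgs18, which speeds the shut-off of G proteins, measured 251 and 203 FPKM in the WT libraries and 44.3 and 24.4 in the RBP-J KO libraries. Pcdh7, a protocadherin, had means of 77.5 FPKM (WT) and 8.84 FPKM (RBP-J KO), lower in both pairs (10.3-fold and 5.01-fold). Hmga2, a chromatin protein of proliferating cells, measured 69.1 and 26.5 FPKM in the WT libraries and 6.06 and 5.30 in the RBP-J KO libraries. All 3 differed less than Spp1, by 6.68-fold, 7.19-fold and 6.59-fold over all libraries. The fatty acid binding protein gene Fabp4 was 4.64-fold lower and the carbonyl reductase gene Cbr2 4.75-fold lower.

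Spp1 lies in a gene cluster with Ibsp, Dmp1, Dspp and Mepe, which encode related phosphoproteins of bone and teeth. All 4 of these were listed at 0 in all 4 libraries. Of the 4 osteoclast markers with an entry, Calcr and Oscar were listed at 0 in every library, and the summed level of the list went from 170 to 70.0 FPKM in pair 1 and from 54.9 to 37.4 FPKM in pair 2. Its member Ctsk, cathepsin K, went from 123 to 30.8 FPKM in pair 1 and from 9.43 to 3.86 FPKM in pair 2, and Atp6v0d2, a proton pump subunit, was 1.20-fold and 1.35-fold lower. Acp5, the osteoclast phosphatase TRAP, which was counted among the enzymes that modify osteopontin, differed the other way, from 103 to 314 FPKM in pair 1 and from 16.1 to 20.5 FPKM in pair 2. Markers of osteoblasts and stroma summed to at most 5.88 FPKM in a library, with 5 of 9 at 0 in all libraries. The part of osteoclast-like cells in the Spp1 difference was not tested.

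Markers of other blood cells differed with the replicate number, with genotype or with both. The 10 neutrophil markers summed to 7334 and 362 FPKM for WT and to 8675 and 1182 FPKM for RBP-J KO, all of them above 0 except 1 in WT replicate 2. Their sum was far higher in replicate 1. Mmp8 did not share this: replicate 1, then replicate 2, gave 108 and 85.2 FPKM (WT), 84.8 and 189 FPKM (RBP-J KO). Of the 10, 7 were higher in RBP-J KO in both pairs, beside 25.1% of all tested genes, and Ngp, Ltf and Mmp8 had opposite signs. At least 1.5-fold higher in both pairs were 2 (3.86% of tested genes), such as Mpo, by 2.16-fold and 3.99-fold. S100a8, S100a9, Camp, Lcn2 and Retnlg were 1.08-fold to 1.25-fold higher in pair 1 and 2.85-fold to 5.07-fold higher in pair 2. The 7 platelet and megakaryocyte markers, which mark cells rich in Itgb3, summed to 3494 and 3031 FPKM for WT and to 2801 and 4322 FPKM for RBP-J KO, mostly Pf4, with no common order by replicate or genotype. Without Pf4 the others were higher in replicate 1, with Gp9 and Gp6 between 9.14 and 9.93 FPKM there and listed at 0 in replicate 2. Itgav, Itgb3, Itgb5 and Cd44 were likewise higher in replicate 1, and the part of these cells in that was not tested. B cell markers summed to more in RBP-J KO in both pairs, from 18.5 to 37.2 FPKM and from 6.93 to 25.9 FPKM, and Cd79b, a B cell receptor component, was 1.99-fold and 3.40-fold higher. Mast cell and basophil markers summed to 7.21 and then 33.1 FPKM in pair 1 and to 0 and then 3.23 FPKM in pair 2. Dendritic cell markers went from 6.16 to 74.7 FPKM in pair 1 and from 2.39 to 2.77 FPKM in pair 2. T and NK cell markers summed to at most 18.6 FPKM and erythroid markers to at most 6.63 FPKM, both listed at 0 in replicate 2. The part of these cells in the genotype differences of the receptor genes was not tested either.

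Among the other integrin subunits, Itgal was the gene at least 1.5-fold higher in both pairs. It encodes the alpha L subunit of the leukocyte receptor LFA-1 and went from 163 to 613 FPKM in pair 1 and from 28.6 to 145 FPKM in pair 2, with groups that overlap. Of 21 listed subunits 11 were tested, 3 were higher and 1 lower in both pairs, 7 had opposite signs, and 0 passed at an unadjusted or adjusted p of 0.05. Of all 11851 tested genes 25.1% were higher and 34.1% lower in both pairs (29.9% and 28.6% after median-ratio scaling), and the median log2 difference of the subunits was 0.22, beside -0.05 for all tested genes. Itgax, alpha X, went from 24.1 to 95.1 FPKM in pair 1 and from 40.0 to 22.4 FPKM in pair 2. Itgb7, which can pair with alpha 4, was 2.10-fold and 1.21-fold higher, and Itga2b, the platelet partner of beta 3, went from 32.2 to 36.1 FPKM in pair 1 and from 0 to 3.69 FPKM in pair 2. The further osteopontin receptor subunits Itga5 and Itga8, picked with their values in view, had log2 differences of 0.22 (SE 0.87) and -0.15 (SE 0.53), and Itgb6 was listed at 0 throughout.

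Enzymes that modify osteopontin were measured for 9 of 13 genes, with 5 higher and 2 lower in both pairs (25.1% and 34.1% of all tested genes), a median log2 difference (RBP-J KO minus WT) of 0.38 and 0 past an unadjusted p of 0.05 (4.42% of all). Fam20c, the kinase that phosphorylates secreted phosphoproteins, went from 215 to 160 FPKM in pair 1 and from 285 to 189 FPKM in pair 2. Tgm2, a transglutaminase that crosslinks osteopontin, went from 511 to 1011 FPKM in pair 1 and from 111 to 401 FPKM in pair 2, the gene of this list at least 1.5-fold apart in both pairs. Mmp12, macrophage elastase, was 1.38-fold and 4.86-fold higher. Ctsd, the lysosomal protease cathepsin D, was 1.39-fold and 1.45-fold lower. F2, the gene of thrombin itself, was listed at 0.

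Other ligands of these receptors were tested for 10 of 21 genes, with 2 higher and 6 lower in both pairs, against 25.1% and 34.1% of all tested genes, the median log2 difference being -0.61. At an unadjusted p under 0.05, which 4.42% of all genes met, there were 3 and at an adjusted p 0 (limma with Benjamini-Hochberg over all genes). Vcam1, the ligand of alpha 4 beta 1, went from 13.3 to 31.1 FPKM in pair 1 and from 4.78 to 27.5 FPKM in pair 2. Edil3, a ligand of alpha V integrins with an RGD sequence, went from 20.2 to 2.46 FPKM in pair 1 and from 5.34 to 1.01 FPKM in pair 2. Mfge8, which bridges dying cells to alpha V integrins, went from 51.8 to 37.2 FPKM and from 65.2 to 39.2 FPKM. Vwf was 1.19-fold and 7.26-fold lower. No other ligand came near Spp1 in WT level: Tgfbi, picked with its values in view, reached 1089 FPKM in WT replicate 1, the highest of the tested ligands in that library.

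**Figure D5:**
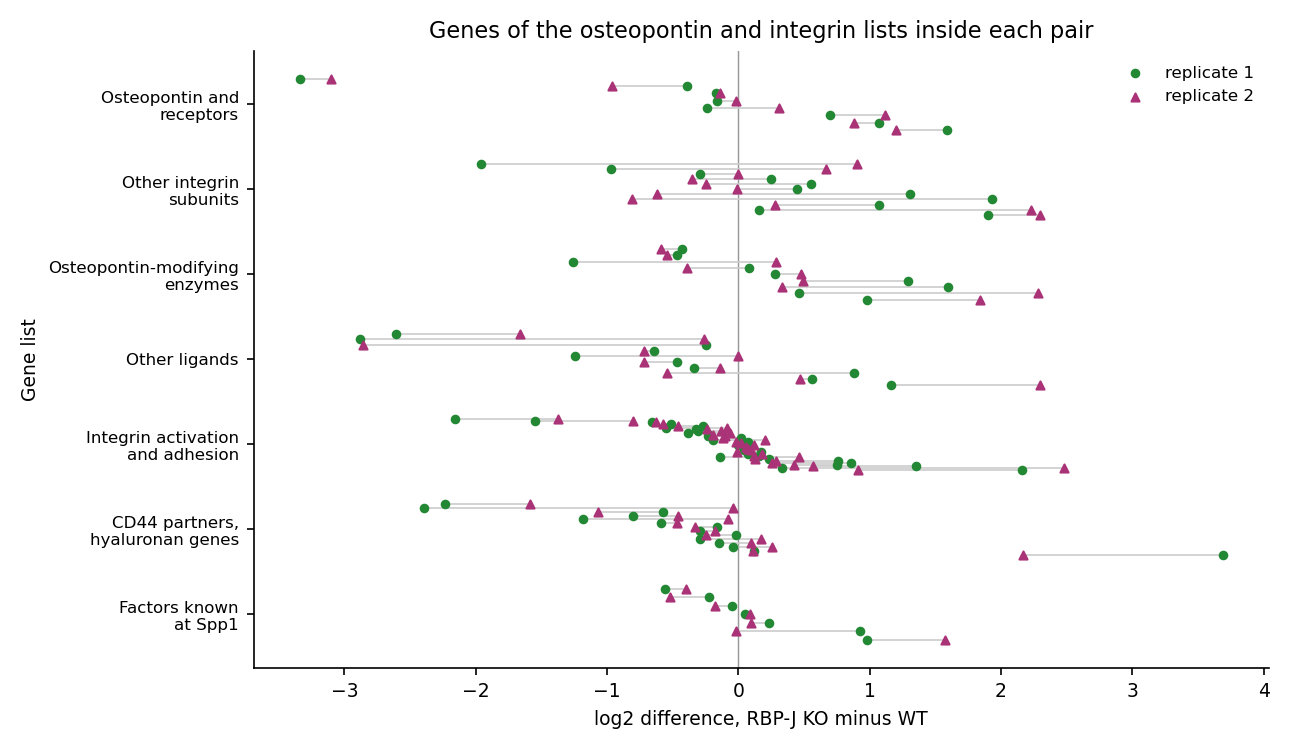
Log2 difference of RBP-J KO minus WT for each tested gene of 7 lists, with green circles for pair 1, purple triangles for pair 2 and a line joining the values of 1 gene. Spp1 stands alone beyond -3 in both pairs, and most genes of integrin activation and adhesion lie close to 0.

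Genes of integrin activation and adhesion signalling went both ways, with 14 of 30 tested higher and 11 lower in both pairs where the shares over all tested genes were 25.1% and 34.1%. The median log2 difference (RBP-J KO minus WT) was 0.04, with 2 past an unadjusted p of 0.05 (4.42% of all) and 0 past the adjusted one. Ptk2, the focal adhesion kinase, went from 71.2 to 15.2 FPKM in pair 1 and from 49.5 to 18.5 FPKM in pair 2 (log2 difference -1.76, SE 0.28; limma adjusted p = 0.488 with Benjamini-Hochberg). Its relative Ptk2b, the kinase PYK2 and the more abundant of the 2 in these cells, picked with its values in view, went from 454 to 763 FPKM and from 321 to 429 FPKM. The parvins, adaptors that link integrin-linked kinase to actin, split: Parvg was 4.46-fold and 1.88-fold higher and Parvb 1.58-fold and 1.54-fold lower. Rasgrp2, an activator of Rap1, went from 15.6 to 19.9 FPKM in pair 1 and from 6.90 to 43.1 FPKM in pair 2. Tln1, the integrin activator talin, picked with its values in view, went from 490 to 497 FPKM and from 488 to 495 FPKM.

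Of the CD44 partners and hyaluronan genes 14 of 18 were tested, with 2 higher and 9 lower in both pairs, beside 25.1% and 34.1% of all tested genes. Their median log2 difference (RBP-J KO minus WT) was -0.24, with 3 past an unadjusted p of 0.05 (4.42% of all) and 0 past the adjusted one. Layn, the hyaluronan receptor layilin, went from 16.6 to 2.75 FPKM in pair 1 and from 16.9 to 4.93 FPKM in pair 2 (log2 difference -1.91, SE 0.36; limma adjusted p = 0.567 with Benjamini-Hochberg). The hyaluronidases Hyal1 and Hyal2 were 1.48-fold and 1.74-fold lower in pair 1 and 2.10-fold and 1.37-fold lower in pair 2. Hmmr, a hyaluronan-binding protein of dividing cells, went from 130 to 24.0 FPKM in pair 1 and from 121 to 118 FPKM in pair 2. Mmp14, a membrane protease that cleaves CD44, was picked with its values in view as the gene of this list furthest apart, and it went the other way, from 47.7 to 628 FPKM in pair 1 and from 3.18 to 17.8 FPKM in pair 2, with groups that overlap (log2 difference 2.93, SE 2.06).

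Transcription factors known at the Spp1 promoter differed in both directions. Of 7 tested, 3 were higher and 3 lower in both pairs (all tested genes: 25.1% and 34.1%), with a median log2 difference of 0.07, 1 past an unadjusted p of 0.05 (4.42% of all) and 0 past the adjusted one. Ets1 went from 29.9 to 59.7 FPKM in pair 1 and from 15.6 to 48.3 FPKM in pair 2, in the direction opposite to Spp1. Mitf, a factor of osteoclasts and melanocytes, was 1.16-fold and 1.43-fold lower, and Hif1a, the hypoxia factor, 1.47-fold and 1.32-fold lower. Runx2, the osteoblast factor, went from 5.37 to 11.2 FPKM in pair 1 and from 4.25 to 4.17 FPKM in pair 2.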

How the data were processed

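The submitters' processing notes name TopHat, Cufflinks and mouse build mm9; the tools' versions, the annotation and the scaling options were not given in the sources used here. For each library the authors deposited 1 table, read here as FPKM because Cufflinks makes that unit from aligned reads; no header states it, so absolute levels are uncertain in scale. Replicate 1 is listed as 22026 genes and replicate 2 as 27583 transcripts, which were summed per symbol (25 symbols turned into dates were restored). Sequences and positions are from GRCm38, not mm9.

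Values were tested as log2(FPKM + 1), which understates low genes, with limma 3.58.1 in R 4.3.3 (group as the only term, variance trend, two-sided, Benjamini-Hochberg, threshold 0.05) for genes averaging at least 1 FPKM. The procedure was run on simulated data with independent noise in each library. Those data lack the deviations that same-numbered libraries share here, so they do not show how it performs on these libraries. Figures used Python 3.11.15 and matplotlib 3.10.9. The 8 members and the 18 gene lists were chosen with earlier results of these data known. Named genes are the members, up to 4 genes per pathway list with the smallest p, the 5 nearest to Spp1 in profile, and Rbpj; others were picked with their values in view or illustrate a count or a marker list. Alternatives covered filters, pseudocounts, scalings, trend, replicate block, transcript summing and single libraries left out.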

Additional observations from a re-analysis of the deposited data

How the results depend on the processing

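The log2 difference of Spp1 was negative in all 14 alternatives, between -3.23 and -3.10 in the 10 that keep all libraries and between -3.49 and -2.96 with 1 library left out. The filters, the trend setting and the replicate block cannot change a member's log2 difference. Of the 10, only the pseudocounts, scalings and transcript summing could move it. In the 10 alternatives that keep all libraries, Itga9 lay between 1.20 and 1.44, Itgb5 between 0.96 and 1.06, Itgav between 0.86 and 0.95, Itgb3 between -0.70 and -0.50, Itgb1 between -0.15 and -0.08, Itga4 between -0.09 and -0.04 and Cd44 between 0.03 and 0.08. Without a filter on low values 8 genes passed the adjusted p of limma, against 0 otherwise; the cause was not tested. With a pseudocount of 10, genes at least 1.5-fold apart in both pairs numbered 265 higher and 210 lower, against 457 and 430, because this pseudocount shrinks the differences of low genes. With 1 library left out, 0 genes passed in each of the 4 fits, in which the lone library is assumed to vary like the other group; counts inside pairs cannot be made there. The genes at an unadjusted p under 0.05, 524 in all libraries, then numbered 321 (without RBP-J KO replicate 1) to 783 (without RBP-J KO replicate 2).

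The labels do not say that equal replicate numbers mark a shared mouse or day, though the data show that they share a sex. Deviations of same-numbered libraries correlated across genes (r = 0.64). With the replicate number as a block in limma, 1557 genes had an unadjusted p under 0.05, again with 0 past the adjusted threshold. In this balanced design a block cannot change the log2 difference of Spp1, which stays at -3.22. The read depth is unknown, so the counting error of values near 0, such as the minor transcripts, cannot be given.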
